A study of Mus musculus with 6 samples.

Results

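The colony-stimulating factors and their receptors were examined in primary osteocyte cultures. They were chosen by gene symbol as the ligand genes *Csf1*, *Csf2* and *Csf3* and the receptor genes *Csf1r*, *Csf2ra*, *Csf2rb*, *Csf2rb2* and *Csf3r*. All 8 symbols were found among the 56748 genes of the deposited count table, and all 8 were among the 17146 genes with enough counts to be tested. *Csf2* passed this filter through the WT libraries alone, and *Csf3r* would not have passed it without the libraries labelled cKO, so their calls are not independent of the filter.

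RNA was sequenced from 3 cultures of WT osteocytes and 3 labelled cKO, a label that stands for osteocytes from mice with floxed *Gsdmd* alleles and a Cre recombinase driven by the *Dmp1* promoter. The WT mice were C57BL/6J, the methods give an age of 7 weeks for the isolation, and the cells were released from flushed and digested long bones and grown for 7 days. Every culture, WT included, was exposed first to LPS (10 ng/mL, 3 h) and then to aluminum hydroxide (20 µg/mL, 3 h), a sequence meant to induce pyroptosis. Unstimulated cultures were not analysed here, and all differences are between stimulated cultures. Excision by this Cre is limited to cells in which the *Dmp1* promoter has been active, and other cells of the culture keep intact alleles. The sources used here do not say whether the 3 cultures of a genotype came from separate animals, so the p-values measure the spread between these cultures. The genes of each library received between 39566835 and 49734046 counts.

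M-CSF, the product of *Csf1*, acts through the receptor tyrosine kinase encoded by *Csf1r* and is needed for the survival of macrophages and for the formation of osteoclasts from their precursors. GM-CSF (*Csf2*) acts through a receptor made of a specific alpha chain (*Csf2ra*) and the common beta chain (*Csf2rb*), which the receptors for interleukin-3 and interleukin-5 also use, and G-CSF (*Csf3*) acts through a homodimer of the *Csf3r* product. Osteoblasts, osteocytes and stromal cells of bone are known sources of M-CSF, while the receptors are mainly found on myeloid cells.

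The labels were checked first. *Gsdmd*, on chr15:75734176-75739257 of GRCm39, was counted 609, 699 and 549 times in WT and 885, 937 and 1045 times in the libraries labelled cKO. The targeted gene was thus higher in every library labelled cKO than in any WT library (log2 fold change 0.69, standard error 0.083, adjusted p = 2.27e-06 by the quasi-likelihood test of edgeR, Benjamini-Hochberg adjusted). The gene count pools all exons, so the floxed exons were not read apart, and every direction given here rests on the label. *Xist*, the transcript of the inactive X chromosome, was counted 4, 0 and 2 times in WT and 48762, 44817 and 51216 times in the libraries labelled cKO. *Ddx3y*, a Y-linked gene, was counted 4785, 5455 and 4033 times in WT and 0 times in each library labelled cKO. Sex and genotype label therefore cannot be told apart in these libraries. The methods describe the mice of all experiments as matched for age and sex, which these counts do not bear out here.

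The labelled cell type was then compared with its markers. Over all tested genes 20.1% rose and 19.2% fell, and the numbers of markers called here and in the next paragraphs are to be read beside these shares. Of 11 osteocyte markers, *Sost* and *Dkk1* had 0 counts in every library, *Dmp1* had 0, 0 and 4 counts in WT and 2, 6 and 4 in the libraries labelled cKO, and *Mepe* reached at most 2. Only 5 of the 11 could be tested, of which 2 rose and 1 fell, and the most abundant was *Cd44*, which many cell types express. The other tested markers were present in every library. *Pdpn* was counted 10151, 11932 and 9137 times in WT and 8219, 7743 and 8579 times in the libraries labelled cKO, and fell. *Fam20c* had 3431, 3665 and 2724 counts in WT and 4040, 4169 and 4541 in the others, and rose. *Ackr3* (14494, 15465 and 13519 against 14229, 13159 and 14490) and *Irx5* (223, 207 and 257 against 274, 246 and 302) did not pass. Among 9 osteoblast markers *Spp1* was the most abundant, *Bglap* stayed at 5 counts or fewer, and 2 of 7 tested genes rose while 4 fell. All 9 stromal and fibroblast markers were tested, 3 rose and 4 fell, and *Fn1* was the most abundant. *Phex* was counted 22, 4 and 4 times in WT and 16, 2 and 6 times in the libraries labelled cKO. *Fgf23* was counted 14, 34 and 8 times in WT and 6, 0 and 0 times in the libraries labelled cKO. Neither was tested. Of the defining transcripts of mature osteocytes, *Sost*, *Dkk1*, *Dmp1* and *Mepe* were thus at or near 0. The methods describe staining of the isolated cells with an antibody to DMP1, a protein measure not analysed here, and the cultures are called osteocytes as labelled.

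Markers of myeloid cells moved with the genotype label. Of 17 macrophage and monocyte markers, 13 were tested and all 13 rose in the libraries labelled cKO, with a median log2 fold change of 2.97 against 0.01 over all tested genes. The summed level of all 17 was 1184, 1283 and 1334 CPM (counts per 1000000 counts of a TMM-scaled library) in WT and 6250.3, 6508 and 6551 CPM in the libraries labelled cKO. *Lyz2* was the most abundant and made up 69.9% to 78.4% of the sum. The monocyte markers *Ly6c2* and *Ccr2* and the macrophage markers *Cx3cr1* and *Cd163* were at 15 counts or fewer in every library and were not tested. Fewer or more cells of a type and less or more RNA per cell cannot be told apart in bulk libraries, and this holds for every gene described here.

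Markers of other cell types were examined as well. Of 13 neutrophil markers, 4 were tested and all 4 rose. All 13 summed to 9.80, 13.1 and 11.1 CPM in WT and 31.0, 29.5 and 33.7 CPM in the libraries labelled cKO. *Mmp8* and *Camp* were the most abundant of them, *S100a9* and *Retnlg* had 0 counts throughout, and *Ly6g*, *Elane*, *Mpo*, *Ngp*, *Ltf* and *Cxcr2* had at most 10. Of 9 mast cell and basophil markers only *Mcpt8* was tested and it fell, while *Cpa3*, *Mcpt4*, *Tpsb2*, *Fcer1a* and *Prss34* were at 0. Of 8 dendritic cell markers 2 were tested and 1, *Itgax*, rose, with *Flt3*, *Siglech* and *Cd209a* at 0. None of 10 lymphocyte markers had enough counts to be tested, and none of them exceeded 12 counts in a library. Of 9 osteoclast markers 7 were tested, 2 rose and 3 fell, *Ctsk* was the most abundant in WT, and *Calcr* and *Dcstamp* were near 0. Endothelial markers split, with 2 of 6 tested genes higher and 4 lower. Of 6 tested chondrocyte markers 4 were higher and 2 lower. With a limit of 1 on the log2 fold change, 3 were higher and 0 lower, beside 6.56% and 4.64% of all tested genes. *Acan* was counted 8, 2 and 6 times in WT and 871, 782 and 922 times in the libraries labelled cKO. *Comp* rose from 567 to 2117 CPM, while *Col2a1* fell from 1428 to 798 CPM. Of 9 erythroid and megakaryocyte markers 2 were tested and 1, *Pf4*, rose.

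Ligands and receptors moved in opposite directions. In the libraries labelled cKO all 5 receptor genes were called higher and 2 of the 3 ligand genes, *Csf1* and *Csf2*, were called lower. Of all tested genes, 20.1% were called higher and 19.2% lower at an adjusted p-value below 0.05. With a further limit of 1 on the log2 fold change, 5 of the 8 genes were higher and 1, *Csf2*, was lower, where 6.56% and 4.64% of all tested genes were higher and lower. The libraries of the 2 groups did not overlap for any of the 8 genes, 5 lying above and 3 below WT, and among all tested genes 25.3% lay above and 23.9% below without overlap.

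**Figure D1:**
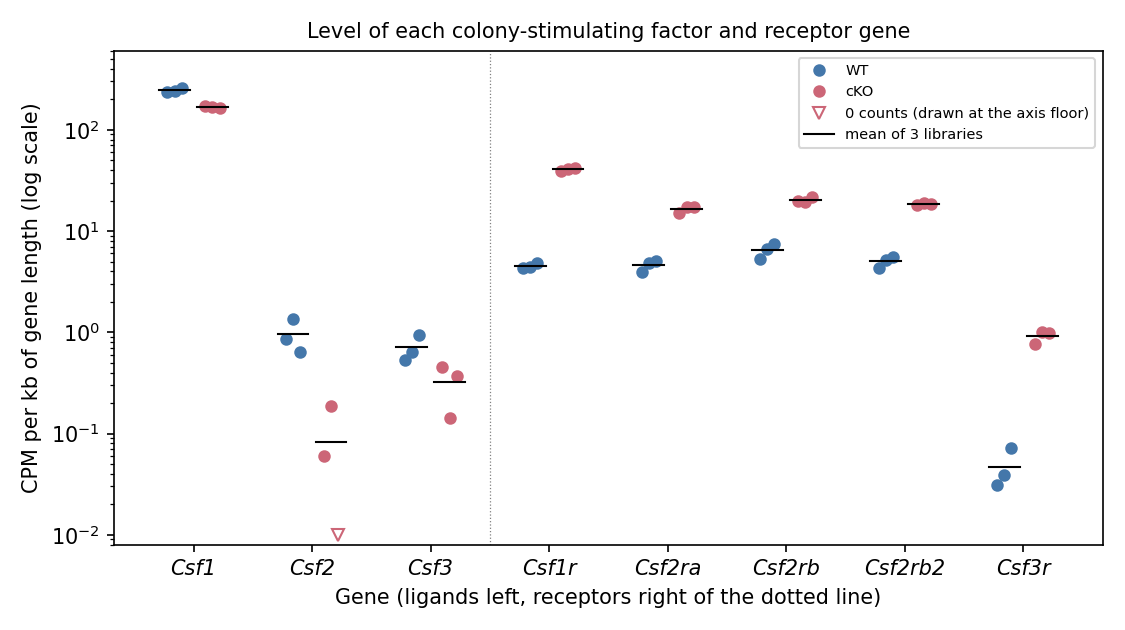
Level of each gene in each library, in CPM per kb of gene length on a log scale, with 3 libraries per group as points and their mean as a line; a library with 0 counts is drawn as an open triangle at the floor of the axis. *Csf1* lay above every other gene in both groups, and the 5 receptor genes lay higher and the 3 ligand genes lower in the libraries labelled cKO than in WT.

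*Csf1* (ENSMUSG00000014599, chr3:107648364-107667785, minus strand of GRCm39) was the most abundant of the ligands. It was counted 55809, 62768 and 53499 times in WT and 38259, 34961 and 39187 times in the libraries labelled cKO. All 3 WT libraries lay above all 3 labelled cKO, and the spread within each group was small beside the gap. *Csf1* fell from 1294 ± 73.8 to 884 ± 23.6 CPM (SD, n = 3 each), so that WT held 1.46 times the level of the libraries labelled cKO. The log2 fold change was -0.55 (standard error 0.040, adjusted p = 4.26e-09 by the quasi-likelihood test of edgeR, Benjamini-Hochberg adjusted), which is short of the limit of 1. Summed marker levels are given beside it in CPM, WT against the libraries labelled cKO. The 9 osteoblast markers held 17376, 16822 and 19033 against 12084, 12376 and 12589. The 9 stromal and fibroblast markers held 54930, 53833 and 57636 against 37441, 39091 and 38107. *Fn1* alone fell from 44856 to 27150 CPM, and members of both lists moved in both directions. The part that these markers have in the fall of *Csf1* was not tested.

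*Csf2* (ENSMUSG00000018916, chr11:54138097-54140493, minus strand) and *Csf3* (ENSMUSG00000038067, chr11:98592089-98594455, plus strand) were at the edge of detection. *Csf2* was counted 31, 54 and 20 times in WT and 2, 6 and 0 times in the libraries labelled cKO. Every WT library held more counts than any labelled cKO, and WT replicate 2 was the highest. *Csf2* fell from 0.764 ± 0.294 to 0.0661 ± 0.0771 CPM (SD, n = 3 each), and its log2 fold change was -3.53 (standard error 0.73, adjusted p = 0.000769 by the quasi-likelihood test of edgeR, Benjamini-Hochberg adjusted). The size of this change depended on single libraries. It was -4.90 without cKO replicate 2, the highest of its group with 6 counts. Without cKO replicate 3, which had 0 counts, it was -2.93, and the call was kept in both cases. *Csf3* was counted 34, 45 and 52 times in WT and 27, 8 and 24 times in the libraries labelled cKO. The groups did not overlap, but WT replicate 1 and cKO replicate 1 were close, and cKO replicate 2 was well below the rest. The mean was 1.00 ± 0.303 CPM in WT and 0.457 ± 0.229 CPM in the libraries labelled cKO (SD, n = 3 each), and the log2 fold change, at -1.11 with a standard error of 0.46, did not pass (adjusted p = 0.0664 by the quasi-likelihood test of edgeR, Benjamini-Hochberg adjusted). With genes of at least 1 count in any library kept it passed at -1.11 (adjusted p = 0.0449 by the same edgeR test), and with counts halved at -1.08 (adjusted p = 0.0485 by the same edgeR test), while over all alternatives its adjusted p ranged from 0.0449 to 0.223.

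Small counts were mostly even, with 63.4% to 65.7% of counts from 1 to 10 being even in a library, as when both mates of a pair are counted. The 2, 6 and 0 counts of *Csf2* may thus stand for fewer pairs. *Csf2* also overlaps *Gm12223*, a long noncoding RNA gene on the opposite strand, which had 0, 8 and 0 counts in WT and 4, 3 and 2 in the libraries labelled cKO. Library preparation used a directional kit, but the strand setting of the counting is not given in the sources used here. A count of *Csf2* and of its antisense partner therefore cannot be fully told apart.

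*Csf1r* (ENSMUSG00000024621, chr18:61233670-61265221, plus strand), which encodes the receptor for M-CSF, had the smallest adjusted p of the 8 genes. It was counted 1115, 1276 and 1085 times in WT and 9534, 9340 and 11055 times in the libraries labelled cKO. The libraries of a group were close to one another and the groups lay far apart. *Csf1r* rose from 26.1 ± 1.63 to 235 ± 8.39 CPM (SD, n = 3 each), an 8.99-fold difference, and its log2 fold change was 3.17 (standard error 0.055, adjusted p = 3.63e-17 by the quasi-likelihood test of edgeR, Benjamini-Hochberg adjusted). Its end overlaps *Hmgxb3* on the opposite strand, which was counted 2588, 2410 and 2230 times in WT and 2301, 1961 and 2245 times in the libraries labelled cKO (log2 fold change -0.09), with overlapping groups. *Pdgfrb*, which lies 15536 bases upstream of *Csf1r* and encodes a related receptor kinase of stromal cells, had a log2 fold change of -0.06 and overlapping groups. *Slc26a2*, which lies beyond *Hmgxb3*, fell with a log2 fold change of -0.21.

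The chains of the GM-CSF receptor rose by less. *Csf2ra* (ENSMUSG00000059326, chr19:61212395-61216867, minus strand), the ligand-specific alpha chain, was counted 508, 695 and 569 times in WT and 1805, 1975 and 2237 times in the libraries labelled cKO. WT replicate 1 was the lowest after scaling and the groups were well separated. It rose from 13.3 ± 1.79 to 47.3 ± 3.79 CPM (SD, n = 3 each), and its log2 fold change was 1.83 (standard error 0.092, adjusted p = 2.4e-11 by the quasi-likelihood test of edgeR, Benjamini-Hochberg adjusted). *Csf2rb* (ENSMUSG00000071713, chr15:78209952-78238047, plus strand), the common beta chain, was counted 1747, 2407 and 2118 times in WT and 6088, 5662 and 7098 times in the libraries labelled cKO. WT replicate 1 was again the lowest, and no WT library came near the other group. *Csf2rb* rose from 47.3 ± 7.95 to 148 ± 7.43 CPM (SD, n = 3 each), and its log2 fold change was 1.65 (standard error 0.085, adjusted p = 3.77e-11 by the quasi-likelihood test of edgeR, Benjamini-Hochberg adjusted). *Csf2rb2* (ENSMUSG00000071714, chr15:78166707-78189921, minus strand), the mouse paralog that serves interleukin-3 alone, was counted 919, 1219 and 1015 times in WT and 3583, 3590 and 4014 times in the libraries labelled cKO. The libraries labelled cKO were close to one another and all above WT. *Csf2rb2* rose from 23.7 ± 2.96 to 87.9 ± 2.59 CPM (SD, n = 3 each), and its log2 fold change was 1.89 (standard error 0.072, adjusted p = 5.34e-13 by the quasi-likelihood test of edgeR, Benjamini-Hochberg adjusted).

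The paralogs share sequence, so that their separate values are uncertain. Aligned over 4647 bases, the canonical transcripts of *Csf2rb* and *Csf2rb2* in GENCODE M39 were 91.5% identical. Windows of 150 bases, the length of a read, were found unchanged in the other transcript for 3.58% of *Csf2rb* and 3.59% of *Csf2rb2*, and windows of 50 bases for 18.9% and 19.0%. With the counts of both genes summed to 1, the log2 fold change was 1.73. The genes lie head to head, 20030 bases apart, and 2.47 Mb and 2.43 Mb from *Gsdmd* on the same chromosome. Of the 69 tested genes between *Gsdmd* and *Csf2rb2*, 21.7% were higher and 17.4% lower by the test, and their median log2 fold change was 0.06. *Ncf4*, which encodes a subunit of the phagocyte NADPH oxidase and is the next coding gene beyond *Csf2rb2*, was counted 138, 169 and 154 times in WT and 2006, 1831 and 2371 times in the libraries labelled cKO, and rose with a log2 fold change of 3.81.

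*Csf3r* (ENSMUSG00000028859, chr4:125918343-125938233, plus strand), the receptor for G-CSF, was the least abundant receptor. It was counted 5, 7 and 10 times in WT and 117, 144 and 161 times in the libraries labelled cKO. Every library labelled cKO held over 100 counts, and no WT library exceeded 10. *Csf3r* rose from 0.170 ± 0.0774 to 3.32 ± 0.465 CPM (SD, n = 3 each), and its log2 fold change was 4.30 (standard error 0.35, adjusted p = 2.05e-08 by the quasi-likelihood test of edgeR, Benjamini-Hochberg adjusted). *Mrps15*, which begins 2484 bases beyond *Csf3r* on the same strand, had overlapping groups and a log2 fold change of 0.07.

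Levels were compared between genes in CPM per kb of the deposited gene length. In WT the order was *Csf1* at 245 ± 14.0, *Csf2rb* at 6.50 ± 1.09, *Csf2rb2* at 5.00 ± 0.624, *Csf2ra* at 4.64 ± 0.623, *Csf1r* at 4.53 ± 0.283, *Csf2* at 0.955 ± 0.367, *Csf3* at 0.708 ± 0.215 and *Csf3r* at 0.0471 ± 0.0215 (SD, n = 3 each). The levels of *Csf2rb2*, *Csf2ra* and *Csf1r* lay within their spread of one another, as did those of *Csf2* and *Csf3*. In the libraries labelled cKO the order was *Csf1* at 167 ± 4.47, *Csf1r* at 40.7 ± 1.45, *Csf2rb* at 20.3 ± 1.02, *Csf2rb2* at 18.6 ± 0.547, *Csf2ra* at 16.5 ± 1.32, *Csf3r* at 0.919 ± 0.129, *Csf3* at 0.323 ± 0.162 and *Csf2* at 0.0827 ± 0.0964 (SD, n = 3 each). *Csf1r* was thus the most abundant receptor gene in the libraries labelled cKO but not in WT, and *Csf3r* lay below both of the rare ligand genes in WT and above both in the libraries labelled cKO. The deposited lengths of *Csf2rb* (7277 bases), *Csf1* (5281) and *Csf2ra* (2871) exceed their canonical transcripts (4764, 4197 and 2330 bases), so their levels per kb may be set too low. The same limit holds for the ratios and shares that follow.

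The balance of ligand to receptor changed with these levels. Per kb, *Csf1* exceeded *Csf1r* by a ratio of 54.7, 53.8 and 53.9 in the WT libraries and of 4.39, 4.09 and 3.88 in the libraries labelled cKO. The ratio was nearly constant within a group and differed widely between the groups, with means of 54.1 ± 0.511 and 4.12 ± 0.257 (SD, n = 3 each). *Il34*, the other ligand of the M-CSF receptor, was counted 498, 432 and 446 times in WT and 714, 657 and 784 times in the libraries labelled cKO. It rose with a log2 fold change of 0.70, and the ratio of *Csf1* to *Il34* per kb went from 46.7 ± 6.44 to 19.4 ± 0.735 (SD, n = 3 each). *Csf1* was therefore the more abundant ligand transcript in every library. Of the summed per-kb level of the 5 receptor genes, *Csf1r* made up 22.0% ± 1.72 in WT and 42.0% ± 0.302 in the libraries labelled cKO (SD, n = 3 each). The share of *Csf2rb* went from 31.3% ± 1.38 to 21.0% ± 0.784 and that of *Csf2ra* from 22.4% ± 0.541 to 17.0% ± 0.819. Within the GM-CSF receptor, the ratio of *Csf2rb* to *Csf2ra* per kb was 1.40 ± 0.062 in WT and 1.24 ± 0.101 in the libraries labelled cKO.

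The receptor genes were next set against the macrophage and monocyte markers. The log2 fold changes of the 13 tested markers ran from 1.73 for *Cd14* to 4.25 for *Fcgr1*. The values of *Csf2ra*, *Csf2rb* and *Csf2rb2* lay close to that of *Cd14*, that of *Csf1r* lay among the markers and that of *Csf3r* close to that of *Fcgr1*. In each library the CPM of a receptor was then divided by the summed CPM of the markers. For *Csf1r* the log2 ratio was -5.58, -5.64 and -5.58 in WT and -4.79, -4.79 and -4.75 in the libraries labelled cKO. For *Csf2rb* it was -4.93, -4.73 and -4.61 in WT and -5.43, -5.51 and -5.39 in the libraries labelled cKO. Against the markers, *Csf1r* was thus higher and *Csf2rb* lower in the libraries labelled cKO, with no overlap in either case. The difference between the group means was 0.82 for *Csf1r*, 2.02 for *Csf3r*, -0.69 for *Csf2rb*, -0.51 for *Csf2ra* and -0.45 for *Csf2rb2*. Without *Lyz2* in the sum, a choice made after seeing the data, the differences of *Csf1r* and *Csf3r* were smaller, at 0.40 and 1.60. Those of *Csf2ra*, *Csf2rb* and *Csf2rb2* were larger in size, at -0.94, -1.12 and -0.87. None changed direction, but the sizes depended on *Lyz2*. The part that the macrophage markers have in the receptor changes was not tested.

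**Figure D2:**
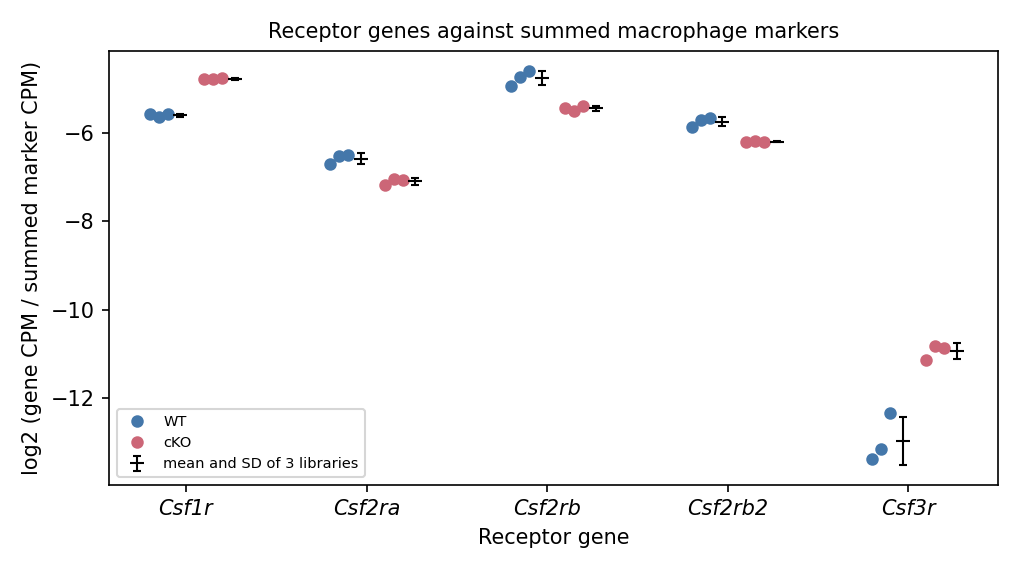
Log2 ratio of the CPM of each receptor gene to the summed CPM of the macrophage and monocyte markers, for 3 libraries per group as points, with mean and SD beside them. *Csf1r* and *Csf3r* lay higher and *Csf2ra*, *Csf2rb* and *Csf2rb2* lower against the summed markers in the libraries labelled cKO than in WT.

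Genes that act directly below the M-CSF receptor mostly rose. Of 24 adapter, kinase and phosphatase genes, all tested, 18 rose and 2 fell, beside 20.1% and 19.2% of all tested genes, with a median log2 fold change of 1.29 against 0.01. Those with the smallest p-values were *Tyrobp* (log2 fold change 3.01), an adapter of myeloid receptors, and *Lat2* (2.33), an adapter of hematopoietic cells. *Inpp5d* (3.03) and *Ptpn6* (3.23), phosphatases of blood cells, and the Src-family kinase genes *Lyn* (1.93) and *Fgr* (3.73) rose as well. The most abundant members, which many cell types express, moved little: *Shc1* fell from 297 to 252 CPM and *Ptpn11* from 289 to 233 CPM. *Sos1*, *Pik3r1* and *Sh2b3* did not pass the test, with log2 fold changes of -0.01, -0.02 and 0.04.

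The JAK-STAT genes used by the GM-CSF and G-CSF receptors were divided. Of 15 genes, all tested, 6 rose and 5 fell, beside 20.1% and 19.2% of all tested genes, with a median log2 fold change of 0.07 against 0.01. The kinase genes *Jak1* (-0.39) and *Jak2* (-0.51) fell, while *Stat5b* (0.30) rose and *Stat5a* (0.07) and *Stat3* (-0.04) did not pass. Among genes that these receptors are known to induce, *Socs2* (0.89), *Socs3* (0.43) and the survival gene *Mcl1* (1.07) rose, and *Cish* (-0.41), *Pim2* (-1.11) and *Bcl2l1* (-0.31) fell. Known targets of the same receptors therefore moved in both directions.

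Other growth factors of hematopoietic cells and their receptors moved singly. Of 12 such factor genes 11 were tested, 4 rose and 1 fell, beside 20.1% and 19.2% of all tested genes. *Kitl*, which encodes stem cell factor, fell from 98.1 to 27.7 CPM (log2 fold change -1.82), while *Cxcl12* (1.66), *Il6* (1.24), *Osm* (1.64) and *Tnfsf11* (1.39) rose. Of 11 receptor genes 7 were tested, 4 rose and 1, *Osmr* (-0.17), fell, beside 20.1% and 19.2% of all tested genes. *Tnfrsf11a*, which encodes the receptor RANK, was counted 64, 96 and 65 times in WT and 602, 657 and 783 times in the libraries labelled cKO. Its groups were far apart and it rose with a log2 fold change of 3.25, close to the 3.17 of *Csf1r*. Of 5 genes for the other ligand of the M-CSF receptor and for cytokines and receptors of the beta chain family, *Il34* rose, *Il3ra* did not pass (-0.05), *Il5* stayed at 12 counts or fewer, and *Il3* and *Il5ra* had 0 counts in every library. Counts for the alpha chain of the interleukin-3 receptor, at 1262, 1484 and 1165 in WT and 1207, 1060 and 1339 in the libraries labelled cKO, thus overlapped between the groups, while both beta chain genes rose.

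**Figure D3:**
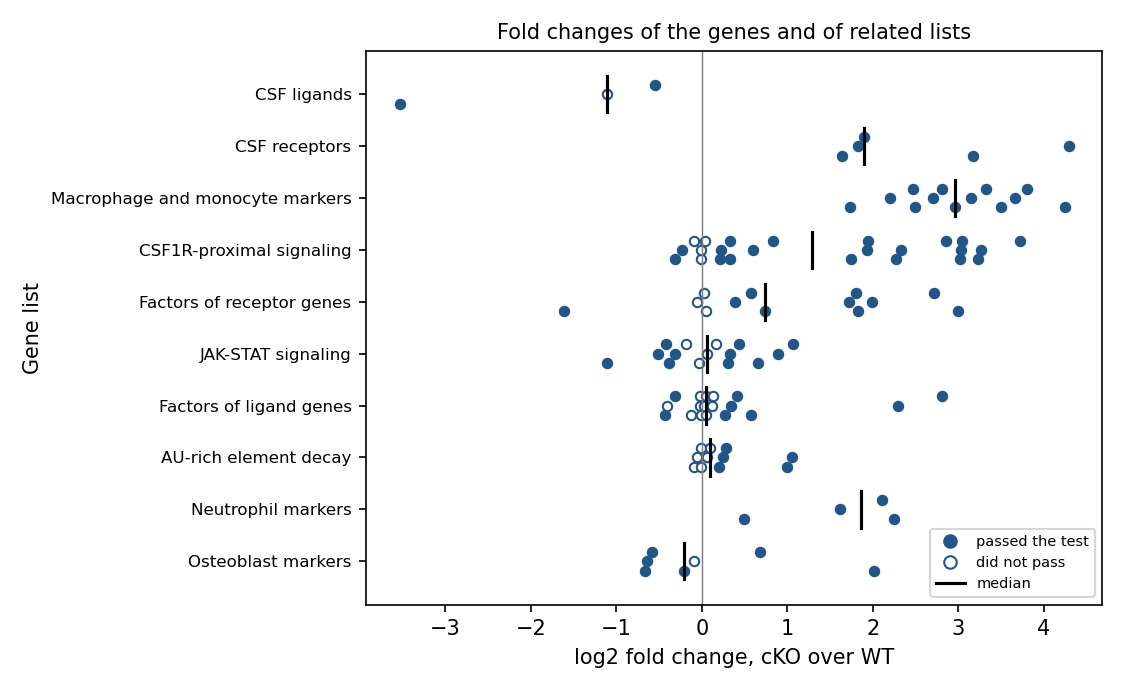
Log2 fold change of each tested gene (x axis, cKO over WT) in the lists named on the y axis, as filled points for genes that passed the test and open points for others, with the median of each list as a bar. The 5 receptor genes and the 13 macrophage and monocyte markers lie above 1, whereas the medians of the JAK-STAT list (0.07) and of the factors of the ligand genes (0.05) lie near 0.

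Transcription factors known to act on the receptor genes were examined as a list of 17, of which 13 were tested, 9 rose and 1 fell, beside 20.1% and 19.2% of all tested genes, with a median log2 fold change of 0.74 against 0.01. *Spi1*, which encodes the myeloid factor PU.1, was counted 250, 354 and 378 times in WT and 2445, 2384 and 2702 times in the libraries labelled cKO. The groups were far apart and *Spi1* rose with a log2 fold change of 2.99. *Irf8* (2.72), *Cebpa* (1.73), *Maf* (1.81) and *Runx1* (0.74) rose too, and *Egr2* (-1.62) fell. *Cebpb*, the most abundant of the list, rose from 211 to 315 CPM. The granulocyte factor genes *Cebpe* and *Gfi1* stayed at 6 counts or fewer in every library.

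The promoters of the receptor genes that rose together are shown because factors of the PU.1 family bind a purine-rich motif. In the RefSeq table used here (GRCm38.p6), which gives 250 bases before to 50 bases after each start, 5 of the 8 genes had an entry, namely *Csf1*, *Csf2*, *Csf2ra*, *Csf2rb2* and *Csf3r*. The letters GAGGAAG, searched on both strands, were found in the promoters of all 3 of these receptor genes and in neither ligand promoter, and in 13.6% of the 32851 promoters of this length. Each run is 5′ to 3′ on the strand of its gene, with the matches in capitals (CTTCCTC is the match on the other strand). The pair of matches in *Csf2ra* overlaps by 1 base, and the second match in *Csf2rb2* lies after the start.
Csf2ra, chr19:61228369-61228668, minus strand: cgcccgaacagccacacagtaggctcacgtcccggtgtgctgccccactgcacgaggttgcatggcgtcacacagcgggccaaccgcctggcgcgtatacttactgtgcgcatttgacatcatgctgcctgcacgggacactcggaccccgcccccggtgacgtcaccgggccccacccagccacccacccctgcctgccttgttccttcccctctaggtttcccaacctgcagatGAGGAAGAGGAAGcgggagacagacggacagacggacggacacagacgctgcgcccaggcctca
Csf2rb2, chr15:78305672-78305971, minus strand: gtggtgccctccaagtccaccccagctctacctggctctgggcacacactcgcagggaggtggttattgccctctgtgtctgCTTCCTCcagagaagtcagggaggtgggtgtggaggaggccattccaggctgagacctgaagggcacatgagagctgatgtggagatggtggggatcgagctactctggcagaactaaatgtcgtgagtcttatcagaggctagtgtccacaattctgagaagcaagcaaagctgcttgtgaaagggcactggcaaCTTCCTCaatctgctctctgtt
Csf3r, chr4:126024409-126024708, plus strand: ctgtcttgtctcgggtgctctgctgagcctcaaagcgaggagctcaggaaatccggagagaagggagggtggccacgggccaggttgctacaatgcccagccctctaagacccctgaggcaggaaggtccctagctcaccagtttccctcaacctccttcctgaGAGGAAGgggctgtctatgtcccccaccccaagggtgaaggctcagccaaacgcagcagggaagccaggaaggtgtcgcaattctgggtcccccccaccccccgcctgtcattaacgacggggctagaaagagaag
A match is a description of letters, and binding was not measured here.

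The factors known to act on the ligand genes, mainly of the NF-κB, AP-1, C/EBP, NFAT and ETS families, were 18 genes, all tested, of which 6 rose and 2 fell, beside 20.1% and 19.2% of all tested genes, with a median log2 fold change of 0.05. *Fos* (2.29) and *Nfatc2* (2.80) rose most, *Rel* (0.41) and *Relb* (0.34) rose by less, and *Ets1* (-0.43) and *Fosl1* (-0.31) fell. *Rela* (-0.12) and *Nfkb1* (0.04) did not pass, and *Fosl2*, the most abundant of the list, was at 777 and 770.3 CPM. The promoter of *Csf1* is shown because it holds a match to the NF-κB letters GGGANTTTC, which 1.11% of the promoters of this length hold on either strand.
Csf1, chr3:107760420-107760719, minus strand: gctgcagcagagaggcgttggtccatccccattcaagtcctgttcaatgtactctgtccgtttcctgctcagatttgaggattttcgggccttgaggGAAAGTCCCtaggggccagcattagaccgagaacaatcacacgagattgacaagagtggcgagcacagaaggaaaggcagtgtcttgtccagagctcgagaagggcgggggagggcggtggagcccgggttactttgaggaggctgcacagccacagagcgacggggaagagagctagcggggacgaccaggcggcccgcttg
The match, on the other strand of the gene, is in capitals. Of the other motifs searched on both strands, the C/EBP letters TTGCNNAA were found in the *Csf2* promoter alone of the 5 (10.8% of all promoters), and the AP-1 letters TGANTCA (7.81%) and the TATA letters TATAAA (13.6%) in none of the 5. Among the coding neighbours of the ligand genes, *Ahcyl1* (-0.20), next to *Csf1*, and *P4ha2* (-0.75), next to *Csf2*, fell. *Eps8l3* (0.71), on the other side of *Csf1*, and *Psmd3* (-0.07) and *Med24* (0.12), on either side of *Csf3*, did not pass, and *Il3*, the other neighbour of *Csf2*, had 0 counts in every library.

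The transcripts of the ligands differ in their AU-rich elements, repeats of the pentamer ATTTA in the 3′ UTR that are known to speed the decay of cytokine mRNA. In the canonical transcripts of GENCODE M39 (GRCm39), *Csf2* held 9 pentamers in a 3′ UTR of 317 bases, overlapping ones included, or 28.4 per kb. *Csf3* held 6 in 672 bases (8.93 per kb) and *Csf1* held 4 in 2111 bases (1.89 per kb). The median was 1.34 per kb over the 13463 tested genes with such a 3′ UTR, of which 0.0446% were as dense as *Csf2*, 1.11% as *Csf3* and 37.6% as *Csf1*. Thus the rarest transcripts of the 3 had the densest elements and the abundant one was near the median. The receptor transcripts held from 0 to 3 pentamers. A stretch of 30 bases with the most pentamers, in capitals, is shown for the dense ligands.
Csf2, chr11:54138155-54138184 of GRCm39, minus strand, 3′ UTR: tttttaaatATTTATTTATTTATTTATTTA
Csf3, chr11:98593810-98593839 of GRCm39, plus strand, 3′ UTR: gatagtttATTTAtctctATTTAatATTTA
Of 11 genes for proteins that bind or act on such elements, all tested, 5 rose (20.1% of all tested genes did), none fell (19.2%) and the other 6 did not pass, with a median log2 fold change of 0.10. *Zfp36*, which encodes tristetraprolin, rose from 34.2 to 71.0 CPM (log2 fold change 1.05), and its relatives *Zfp36l1* (1.00) and *Zfp36l2* (0.29) rose too. *Elavl1* (-0.01), *Khsrp* (-0.05) and *Hnrnpd* (0.06) did not pass. Decay of mRNA was not measured here.

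M-CSF and its receptor can be shed from the cell surface by proteases. Of 7 genes for sheddases, their regulators and an inhibitor, all tested, 4 rose and 2 fell, beside 20.1% and 19.2% of all tested genes, with a median log2 fold change of 0.14. *Adam17*, the main sheddase of both proteins, rose from 92.1 to 108 CPM (0.23), and *Timp3*, which encodes an inhibitor of ADAM17, fell from 1779 to 1048 CPM (-0.76). Both changes were below the limit of 1.

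The genes whose log2 CPM followed *Csf1* and *Csf1r* most closely over the 6 libraries were sought among 13875 tested genes with a mean of at least 1 CPM. For *Csf1* these were *Tmem184b*, *Brd3* and *S100a16*, with Pearson r of 0.9996, 0.9994 and 0.9992, and 206 genes had r above 0.99. For *Csf1r* they were *Syngr1*, *Apoe* and *Cd300ld*, each with r of 0.9999, and 658 genes had r above 0.99. The 6 libraries fall into 2 separate groups by label, so these values mostly describe the gap between the groups. Sex is not separable from the label in any of them.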

How the data were processed

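The authors trimmed 150-base paired-end reads, aligned them to GRCm39 with HISAT2 2.0.5 and counted them per gene with featureCounts (1.55.0-p3 in the submitters' processing notes, another release in the methods, which also name RSEM), and they deposited raw counts per gene, not normalized, with gene lengths in bases (another value of the deposited table). The kit was directional, and the strand setting of counting is not given in the sources used here. Groups and replicate numbers came from the sample labels. With edgeR 4.0.16 in R 4.3.3, genes were filtered by filterByExpr, scaled by TMM and tested with glmQLFit (not robust) and glmQLFTest, with no term other than genotype. The Benjamini-Hochberg adjustment covered 17146 genes, and adjusted p-values below 0.05 were called. The procedure was tested on simulated counts. The simulation held far fewer changed genes than were called in these libraries, and its outcome is not reported here. CPM use the TMM-scaled library size. Counts of replicates differed by more than sampling noise (chi-square per gene 2.40 to 6.93 with counts halved), so all 6 libraries were kept apart.

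The members and the gene lists (pathways and cell type markers, no set test) were chosen with earlier results of these data known. Genes named were the 8 members, *Gsdmd*, list genes with the smallest p or highest CPM, defining markers at 0, neighbouring or overlapping genes, and the 3 likest genes of *Csf1* and *Csf1r*; other list genes and the sex-linked genes were named after their values were seen. Alternatives were DESeq2 1.42.0, limma-voom (limma 3.58.1), other scalings and filters, a fold limit, the replicate block, halved counts, summed paralogs and each library left out. Promoters came from RefSeq (GRCm38.p6) and transcripts from GENCODE M39, and no sequence was printed for *Csf1r*. Some list genes are not reported here by name.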

Additional observations from a re-analysis of the deposited data

How the results depend on the processing

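Across the alternatives none of the 8 genes changed direction, and the 5 receptor genes were called higher in each alternative that tested them. With genes of at least 10 counts in every library, *Csf2*, *Csf3* and *Csf3r* were not tested, so that 4 of the 8 genes were called higher and 1 lower. Of all 15134 genes tested with this filter, 3234 were higher and 3053 lower. The fold limit of 1 left 1124 genes higher and 796 lower, and of the 8 genes 1 lower, since *Csf1* at -0.55 lies short of it. *Csf3* passed at -1.11 with genes of at least 1 count kept and at -1.08 with counts halved, which made 3 of the 8 genes lower in each case. Of all tested genes, 3390 of 27649 were lower with genes of at least 1 count kept and 3263 of 15598 with counts halved. The cause of the change for *Csf3* was not tested. Leaving out single libraries, the log2 fold change ranged from -0.60 to -0.51 for *Csf1*, -4.90 to -2.93 for *Csf2*, -1.43 to -0.77 for *Csf3*, 3.12 to 3.21 for *Csf1r*, 1.71 to 1.90 for *Csf2ra*, 1.51 to 1.75 for *Csf2rb*, 1.78 to 1.96 for *Csf2rb2* and 4.06 to 4.68 for *Csf3r*, and genes called numbered 2942 to 3407 higher and 2796 to 3375 lower. Without *Lyz2* in the marker sum, chosen after seeing the data, the log2 ratio differed between groups by 0.40 for *Csf1r* and 1.60 for *Csf3r*. It differed by -0.94 for *Csf2ra*, -1.12 for *Csf2rb* and -0.87 for *Csf2rb2*. With *Lyz2* these differences were 0.82, 2.02, -0.51, -0.69 and -0.45. The replicate numbers did not pair the libraries (correlations of deviations -9.23e-05, 0.00116 and -0.0136); with the replicate block, 3298 genes were higher and 3098 lower against 3445 and 3285 without it, and the calls of the 8 genes did not change. Depth limits *Csf2*, *Csf3* and, in WT, *Csf3r*, whose counts were below 60 per library.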
